A study of Homo sapiens with 12 samples.

Results

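Autophagy and lysosome genes were followed across 4 groups of A549/DDP cells, which derive from the lung adenocarcinoma line A549 (human) and resist cisplatin. The genes were 47 symbols given as a list, and every row of the count and FPKM tables that carried one of those symbols was taken, which found all 47 among 61510 genes. They comprise 26 autophagy genes (5 cargo receptors, 4 members of the ATG8 family and 17 genes of the core machinery), 18 lysosome genes (4 of the membrane, 9 of the lumen and 5 subunits of the V-ATPase proton pump) and the 3 transcription factors TFEB, TFE3 and MITF. The rule that takes the rows uses no expression value, but the list was drawn up with earlier results of these data known. All 47 passed the filter on low counts, which left 15653 genes in all.

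Each group had 3 RNA sequencing libraries of total RNA, and the groups are named by hairpin and treatment, such as shNC DMSO. All 4 share the A549/DDP background, which the labels describe as grown with 1 µg/ml cisplatin. A line with the control hairpin shNC and a line with the hairpin shNRF2, directed against the transcription factor NRF2, were each given DMSO or 4 µM GNA (gambogenic acid, a xanthone from gamboge resin) for 24 h at 70% confluence. The labels do not say whether a line is 1 clone, how many hairpin sequences were used, or if separate cultures gave the 3 libraries. The p-values below therefore cover the spread among libraries only, and that spread may be technical.

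Autophagy encloses cytoplasm in a double membrane that fuses with lysosomes. A kinase complex around ULK1 and RB1CC1 starts the process, a lipid kinase complex with BECN1 and ATG14 marks the membrane, and a conjugation system that includes ATG12, ATG5, ATG16L1, ATG7 and ATG3 attaches ATG8 proteins to it. Receptors such as p62, the product of SQSTM1, bind ubiquitylated cargo and ATG8 proteins at once. p62 also binds KEAP1, the adaptor that marks NRF2 for degradation, and SQSTM1 is itself a known NRF2 target. A549 cells are known to carry a KEAP1 mutation that keeps NRF2 active. TFEB, TFE3 and MITF are known to bind CLEAR elements in the promoters of lysosome genes.

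The promoters of the members with the largest differences in GNA response between the lines are shown first, since the hairpin targets a transcription factor. Binding of that factor to these windows was not measured. RefSeq (GRCh38.p14) gave windows of 300 bases, 250 before and 50 after a transcription start, for 37 of the 47 genes (49 windows, since some genes have several starts), and each is printed 5′ to 3′ on the strand of its gene. Capitals mark matches, on either strand, to the CLEAR core TCACGTGA, the antioxidant response element cores TGACNNNGC and TGAGNNNGC, the heat shock units GAANNTTC and TTCNNGAA, or the ATF4 composite element TGATGNAA. No match overlapped another in the printed windows. The first window belongs to SQSTM1 (chr5:179820655-179820954, plus strand, the third of its 3 starts).
SQSTM1: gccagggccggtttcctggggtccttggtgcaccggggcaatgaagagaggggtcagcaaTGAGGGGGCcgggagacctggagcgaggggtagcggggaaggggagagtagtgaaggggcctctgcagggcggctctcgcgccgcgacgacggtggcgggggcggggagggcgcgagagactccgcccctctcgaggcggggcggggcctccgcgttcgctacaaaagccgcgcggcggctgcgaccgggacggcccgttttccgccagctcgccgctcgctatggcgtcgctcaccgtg
The window of MAP1LC3B, an ATG8 gene, lies at chr16:87392086-87392385 on the plus strand.
MAP1LC3B: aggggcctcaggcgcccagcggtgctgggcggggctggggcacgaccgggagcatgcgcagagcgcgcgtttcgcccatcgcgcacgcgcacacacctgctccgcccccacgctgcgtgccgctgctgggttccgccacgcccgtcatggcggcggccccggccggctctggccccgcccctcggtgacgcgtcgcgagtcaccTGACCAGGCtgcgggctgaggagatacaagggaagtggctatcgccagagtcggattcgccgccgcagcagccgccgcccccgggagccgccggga
The window of GABARAPL1, another ATG8 gene, lies at chr12:10212627-10212926 on the plus strand.
GABARAPL1: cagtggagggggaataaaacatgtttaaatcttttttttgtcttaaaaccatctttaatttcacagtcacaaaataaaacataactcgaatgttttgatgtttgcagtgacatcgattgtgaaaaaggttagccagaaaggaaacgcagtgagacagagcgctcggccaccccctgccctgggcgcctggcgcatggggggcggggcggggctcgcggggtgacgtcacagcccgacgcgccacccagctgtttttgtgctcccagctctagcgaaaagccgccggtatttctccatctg
The window of NPC1, the cholesterol exporter of the lysosome membrane, lies at chr18:23586457-23586756 on the minus strand.
NPC1: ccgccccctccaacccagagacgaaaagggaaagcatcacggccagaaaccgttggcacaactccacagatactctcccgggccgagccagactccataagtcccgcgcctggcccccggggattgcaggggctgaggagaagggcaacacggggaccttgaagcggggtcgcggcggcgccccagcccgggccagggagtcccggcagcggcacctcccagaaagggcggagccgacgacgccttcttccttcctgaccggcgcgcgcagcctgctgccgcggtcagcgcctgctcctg
For contrast, the window of the lysosomal calcium channel gene MCOLN1 (chr19:7522374-7522673, plus strand) holds 2 CLEAR cores.
MCOLN1: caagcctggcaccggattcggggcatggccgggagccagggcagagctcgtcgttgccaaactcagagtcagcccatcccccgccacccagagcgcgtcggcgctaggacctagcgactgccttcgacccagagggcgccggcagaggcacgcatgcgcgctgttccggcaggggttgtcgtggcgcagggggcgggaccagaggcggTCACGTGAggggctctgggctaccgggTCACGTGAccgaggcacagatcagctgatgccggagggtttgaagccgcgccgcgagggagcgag

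Among the 4 genes with the largest differences, the printed SQSTM1 window held 1 match to TGAGNNNGC, its other 2 windows none of the 6 motifs, and the MAP1LC3B window 1 match to TGACNNNGC, and none of the 6 motifs was found in the GABARAPL1 or NPC1 window. These letters are common: TGACNNNGC was in 13.3% and TGAGNNNGC in 18.3% of 34796 distinct promoter windows of the same length. Over the members, TGACNNNGC was in 9 of 49 windows. These belonged to 9 of 37 genes, 7 of the 10 lysosome genes with a window and 2 of the 24 autophagy genes. TGAGNNNGC was in 12 of 49 windows, which belonged to 12 genes, 4 lysosome and 8 autophagy. The shares of all promoters are per window, and a gene with several windows has more room for a match. The CLEAR core is rarer, at 0.983% of all windows. It was found for 4 of the 10 lysosome genes (LAMP1, ATP6V0D1, MCOLN1 and CTSA) and for 1 of the 24 autophagy genes (ATG3). The heat shock units, in 6.79% and 7.76% of all windows, were found for TAX1BP1 and GABARAPL2 (GAANNTTC) and for ATG3 (TTCNNGAA), and the ATF4 element, in 3.63% of all windows, for none. A match is a description of the letters and not a bound site.

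The libraries held 12848607 to 17192671 counts. Levels are given as CPM, counts scaled by the TMM-adjusted library total,, and fold changes as log2 values ± SE from edgeR with 3 libraries per group. A gene was called higher or lower at a Benjamini-Hochberg adjusted p under 0.05 over 15653 genes. NFE2L2, which encodes NRF2, stood at 81.6, 77.8 and 74.4 CPM in shNC DMSO, 88.96, 83.03 and 90.2 in shNC GNA, 47.9, 49.4 and 53.3 in shNRF2 DMSO and 46.2, 47.5 and 43.6 in shNRF2 GNA. It was lower with the hairpin by 0.64 ± 0.064 in DMSO (adjusted p = 1.2e-08) and 0.93 ± 0.064 in GNA (adjusted p = 9e-12). With GNA, NFE2L2 rose by 0.17 ± 0.061 in shNC (adjusted p = 0.041) and had a value of -0.13 ± 0.066 in shNRF2 (adjusted p = 0.13). The difference of these responses, -0.30 ± 0.09, was called (adjusted p = 0.045), and its part in the results below was not tested. Epithelial markers (KRT8, KRT18, CDH1 and EPCAM, 4 of 5 listed genes at 1 CPM or more, KRT19 at or near 0) summed to 15289 to 16546 CPM in the DMSO libraries of both lines and 9458 to 10024 CPM in the GNA libraries. KRT8 and KRT18 made up nearly all of these sums, CDH1 and EPCAM were not lower with GNA in any group mean, and the part of these differences in the results was not tested. Endothelial and leukocyte markers summed to under 1 CPM in every library, and of 5 alveolar type 2 and 5 fibroblast markers 1 each (ABCA3 and COL1A1) reached 1 CPM. Library 1 of shNC DMSO stood apart from the other 2 of its group (chi-square per degree of freedom 7.27 and 5.77, against 3.50 between those 2), and results without it are given where a call depends on it. Scaling by plain library totals in place of TMM moved the median of all genes in the GNA comparison of shNC cells by 0.10 and raised its split of all calls from 2284 higher and 2526 lower to 3543 and 1542. The same change moved the splits from 2617 and 2657 to 3356 and 2091 (GNA in shNRF2), from 2636 and 2872 to 3226 and 2266 (hairpin in DMSO) and from 561 and 507 to 414 and 674 (difference of the GNA responses).

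GNA raised more of these genes than it lowered in both lines, and the shift was larger in the shNRF2 line. In shNC cells, 13 of 47 members were higher with GNA (27.7%, beside 14.6% of all genes tested) and 7 were lower (14.9%, close to the 16.1% of all genes). With library totals these counts were 18 and 4. The shNRF2 line had 23 members higher (48.9%, beside 16.7% of all genes) and 3 lower (6.38%, beside 17% of all genes). The median over the 26 autophagy genes was 0.08 in shNC and 0.32 in shNRF2, and over the 18 lysosome genes 0.03 and 0.20, where all genes tested had medians of 0.02 and 0.0098. Both lines together called 13 genes higher, SQSTM1, CALCOCO2, TAX1BP1, MAP1LC3B, GABARAPL1, ULK1 and ATG14 of autophagy and NPC1, LAMP2, CTSD, CTSL, HEXA and PSAP of the lysosome, and 3 lower, CTSB, NPC2 and MITF. Lower RNA in a bulk library cannot be told apart from fewer cells that carry it.

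The response itself was compared between the lines as the difference of the 2 log2 fold changes. It was called larger in shNRF2 for 12 of 47 members (25.5%, beside 3.58% of all genes tested). These were SQSTM1, OPTN, MAP1LC3B, GABARAPL1, ATG4A, ATG12 and RB1CC1 of autophagy, and NPC1, CTSL, GLA, PSAP and ATP6V1H of the lysosome. edgeR called 0 of 47 smaller, beside 3.24% of all genes, with 1 at an unadjusted p under 0.05 (NPC2). DESeq2 called 12 larger and NPC2 smaller. The calls for SQSTM1, OPTN, MAP1LC3B, GABARAPL1, RB1CC1 and NPC1 were made in each of the 21 other fits run, whereas the other 6 were lost in 5 to 13 of them. The number called larger was 7 without library 2 of shNC GNA, 7 without library 1 of shNRF2 GNA, and 7 with limma on FPKM. The median difference was 0.22 over the autophagy genes, 0.16 over the lysosome genes and -0.0048 over all genes.

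**Figure D1:**
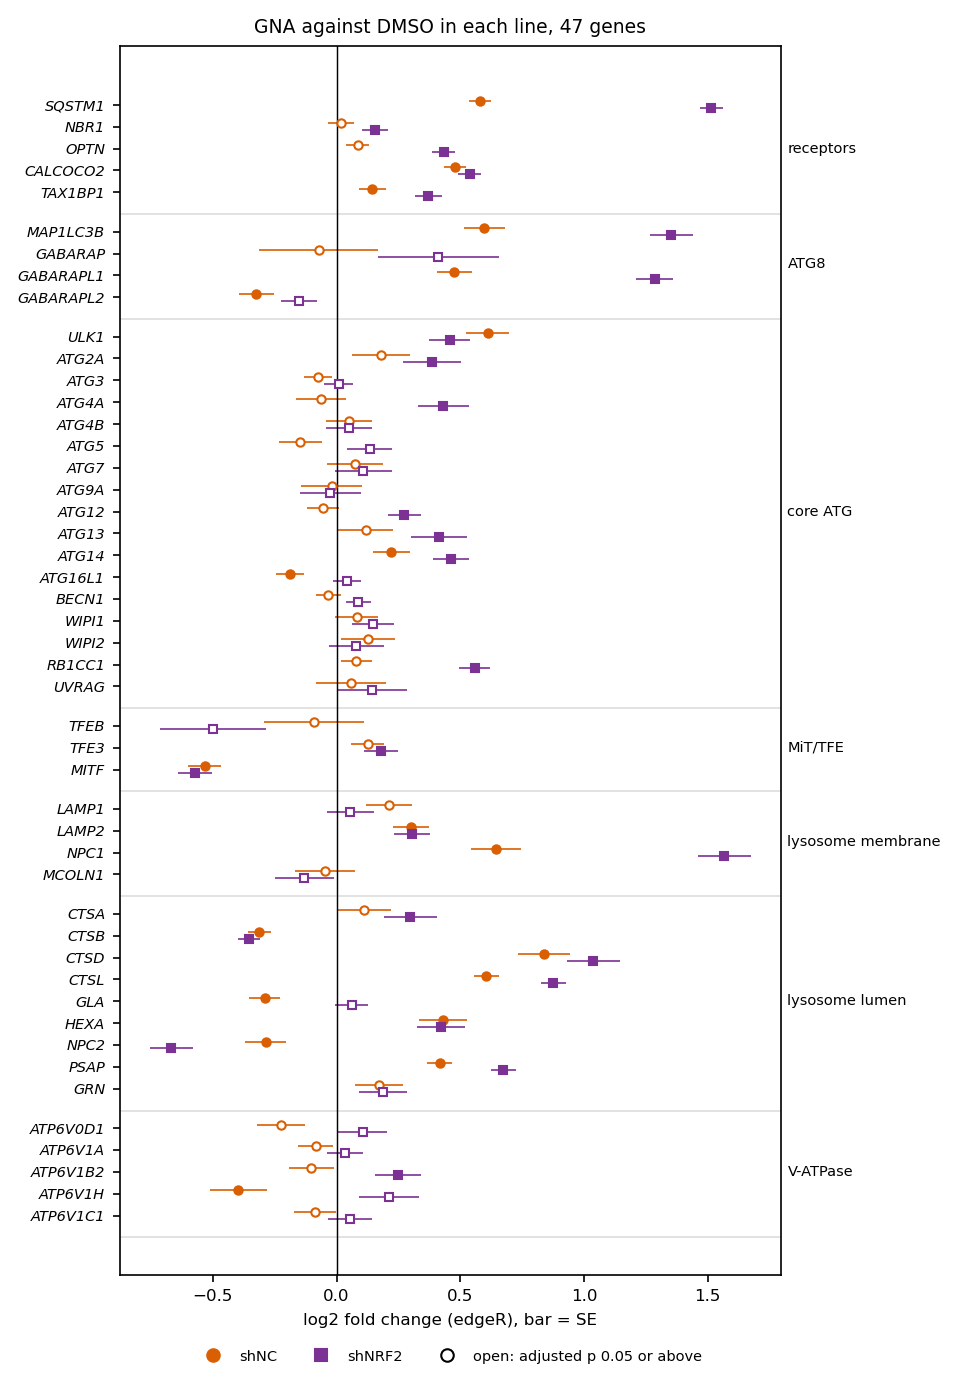
Log2 fold change of GNA against DMSO (x axis, edgeR, bars are SE, n = 3 libraries per group) for the 47 genes (y axis, by role), circles for shNC and squares for shNRF2, with filled symbols for an adjusted p under 0.05. The squares of SQSTM1, MAP1LC3B, GABARAPL1 and NPC1 lie at 1.28 to 1.57 and their circles at 0.47 to 0.64.

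**Figure D2:**
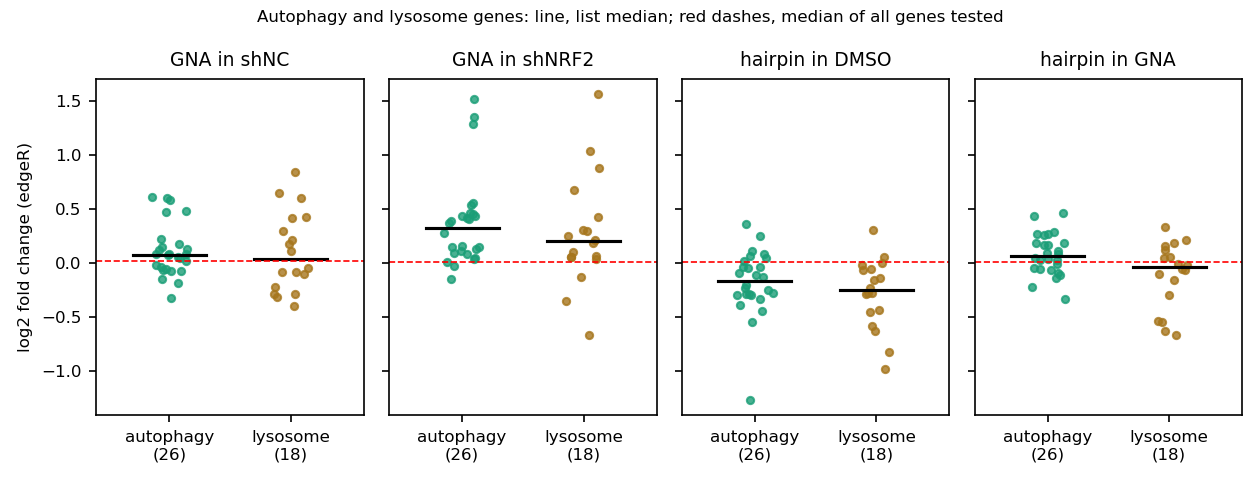
Log2 fold changes (y axis, edgeR) of the 26 autophagy and 18 lysosome genes in 4 comparisons, 1 point per gene, with the list median as a black line and the median of all 15653 genes tested as red dashes. The medians lie at 0.32 and 0.20 for GNA in shNRF2 and at -0.17 and -0.25 for the hairpin in DMSO.

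All 5 listed cargo receptors were called higher with GNA in the shNRF2 line, beside 16.7% of all genes tested. Of 14 other receptors, 3 were higher there (21.4%) and 2 lower (14.3%, beside 17% of all genes). Among the 5 listed, SQSTM1 had the largest value. The call of NBR1 was lost without library 2 of shNRF2 DMSO or library 1 or 2 of shNRF2 GNA (0.11 to 0.15, adjusted p = 0.061 to 0.15). SQSTM1 stood at 689, 764 and 738 CPM in shNC DMSO and 1064, 1119 and 1091 CPM in shNC GNA. In the shNRF2 line it stood at 313, 293 and 306 CPM in DMSO and 847, 884 and 874 CPM in GNA. The 4 groups did not overlap, with shNRF2 DMSO lowest and shNC GNA highest. GNA raised SQSTM1 in shNC by 0.58 ± 0.045 (adjusted p = 1.5e-10) and in shNRF2 by 1.51 ± 0.047 (adjusted p = 2.5e-19), a difference of 0.94 ± 0.065 (adjusted p = 1.2e-10). The hairpin changed it by -1.27 ± 0.047 in DMSO (adjusted p = 1.6e-17) and by -0.33 ± 0.045 in GNA (adjusted p = 2.7e-06). Of its exonic bases in GENCODE 29, 20.7% overlap MRNIP on the other strand, and whether the counting used strand is not given in the sources used here.

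OPTN encodes optineurin, a receptor for damaged mitochondria and bacteria. OPTN stood at 459, 501 and 506 CPM in shNC DMSO, 514, 534 and 507 in shNC GNA, 355, 347 and 377 in shNRF2 DMSO and 490.4, 488 and 478 in shNRF2 GNA. The shNRF2 DMSO libraries lay below the other 9, and the shNC groups lay next to each other without overlapping. Its response to GNA was 0.08 ± 0.047 in shNC (adjusted p = 0.18) and 0.43 ± 0.047 in shNRF2 (adjusted p = 3.7e-08), and the difference was 0.35 ± 0.067 (adjusted p = 0.0015). The shNC response passed the threshold with upper-quartile scaling (0.12, adjusted p = 0.049), library totals (0.19, adjusted p = 0.0019) and limma on FPKM (adjusted p = 0.0052 and 0.0054). CALCOCO2 encodes NDP52, another receptor for bacteria and mitochondria, and followed a different pattern. CALCOCO2 stood at 342, 365 and 346 CPM in shNC DMSO, 492, 503 and 472 in shNC GNA, 332, 346 and 352 in shNRF2 DMSO and 510.4, 494 and 489 in shNRF2 GNA. All 6 GNA libraries were above all 6 DMSO libraries, and the lines overlapped within each treatment. It rose by 0.48 ± 0.045 in shNC (adjusted p = 5.1e-09) and 0.54 ± 0.046 in shNRF2 (adjusted p = 3.3e-10), and the difference between the lines had a 95% interval of -0.07 to 0.19. TAX1BP1 rose by 0.14 ± 0.054 in shNC (adjusted p = 0.043) and 0.37 ± 0.054 in shNRF2 (adjusted p = 4.4e-06), and NBR1 had values of 0.02 ± 0.052 in shNC, which was not called, and 0.15 ± 0.052 in shNRF2 (adjusted p = 0.024). The TAX1BP1 difference between the lines, 0.23, was not called by edgeR (adjusted p = 0.076). It was called in 4 of 21 other fits (0.22 to 0.29, adjusted p = 0.015 to 0.049). Among them was the fit without library 1 of shNC DMSO (0.25, adjusted p = 0.042). The call of TAX1BP1 in shNC was lost in 11 of 22 other fits (0.10 to 0.15, adjusted p = 0.051 to 0.21). These were DESeq2, its size factors, the replicate block, the compared groups alone, and the fits without library 1 or 3 of shNC DMSO, 1 or 2 of shNC GNA, or any 1 of shNRF2 GNA.

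Of the 4 ATG8 genes, MAP1LC3B and GABARAPL1 rose with GNA in both lines and ended highest in the shNRF2 line. MAP1LC3B encodes LC3B, whose lipid-bound form marks autophagosomes. MAP1LC3B stood at 33.6, 33.4 and 31.02 CPM in shNC DMSO, 46.9, 50.8 and 50.4 in shNC GNA, 29.3, 26.4 and 23.99 in shNRF2 DMSO and 73.2, 58.8 and 72.3 in shNRF2 GNA. All shNRF2 GNA libraries were above all shNC GNA libraries, and all shNRF2 DMSO libraries were below all shNC DMSO libraries. GNA raised it by 0.60 ± 0.084 in shNC (adjusted p = 3.3e-06) and 1.35 ± 0.085 in shNRF2 (adjusted p = 7.9e-13), a difference of 0.76 ± 0.12 (adjusted p = 0.00016). The hairpin changed it by -0.29 ± 0.089 in DMSO (adjusted p = 0.011) and by 0.46 ± 0.08 in GNA (adjusted p = 7e-05). The first of these was not called without library 3 of shNRF2 DMSO (-0.23, adjusted p = 0.072) or with limma on FPKM (adjusted p = 0.079 and 0.065). MAP1LC3B2, a near-identical copy that can share its reads, stood at 2.25 ± 0.781 CPM (SD, n = 3) in shNC DMSO and 4.32 ± 0.345 CPM in shNRF2 GNA.

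GABARAPL1 encodes an ATG8 protein of the GABARAP branch, which acts late in autophagosome closure and fusion. GABARAPL1 stood at 45.4, 56.3 and 56.9 CPM in shNC DMSO, 75.8, 71.9 and 73.1 in shNC GNA, 34.8, 38.1 and 36.3 in shNRF2 DMSO and 92.1, 87.2 and 86.7 in shNRF2 GNA. The groups did not overlap and had the same order as those of MAP1LC3B. It rose by 0.47 ± 0.071 in shNC (adjusted p = 8.5e-06) and 1.28 ± 0.074 in shNRF2 (adjusted p = 1.2e-13), and the difference was 0.81 ± 0.10 (adjusted p = 8e-06). The hairpin changed GABARAPL1 by -0.54 ± 0.076 in DMSO (adjusted p = 2.5e-06) and 0.27 ± 0.069 in GNA (adjusted p = 0.0045). GABARAPL2 went the other way with GNA in shNC, where it fell by 0.33 ± 0.071 (adjusted p = 0.00086). Its value in shNRF2, -0.15, was not called. The hairpin lowered GABARAPL2 in DMSO by 0.39 ± 0.072 (adjusted p = 1e-04), as it did MAP1LC3B and GABARAPL1. In GNA the hairpin lowered it by 0.22 ± 0.073 (adjusted p = 0.027), unlike those genes. This hairpin call in GNA was lost without library 1 of shNC GNA, library 1 or 3 of shNRF2 GNA, and with limma (-0.21 to -0.16, adjusted p = 0.061 to 0.14). GABARAP had group means of 3.67 to 4.84 CPM and was called in no comparison by edgeR with all 12 libraries. Its value with GNA in shNRF2, 0.41 (adjusted p = 0.21), was called without library 2 of shNRF2 DMSO (0.72, adjusted p = 0.04). Of its exonic bases, 30.5% overlap another gene on the same strand, so its level is uncertain, as are those of ATG8 genes with near-identical copies.

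**Figure D3:**
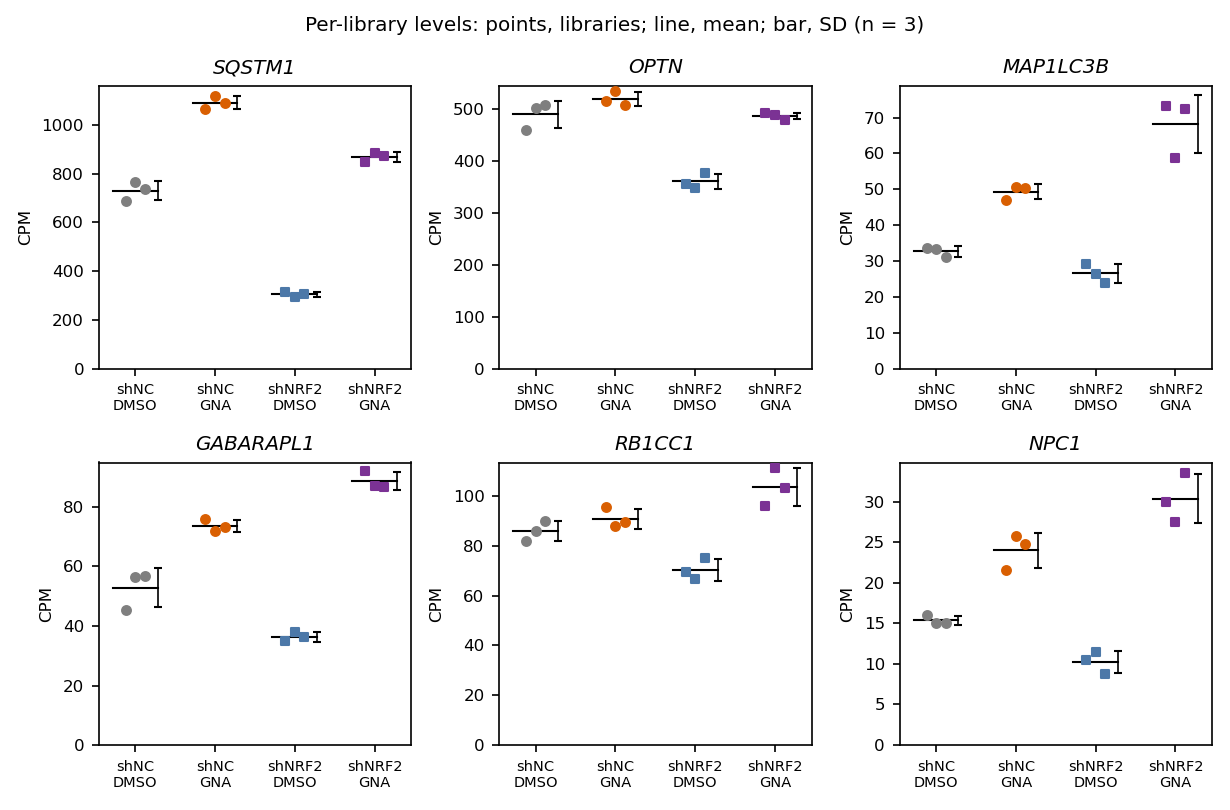
CPM (y axis, from 0) in each library of the 4 groups (x axis) for 6 genes, with the group mean as a line and the SD as a bar (n = 3). SQSTM1, MAP1LC3B, GABARAPL1 and NPC1 are lowest in shNRF2 DMSO, and MAP1LC3B, GABARAPL1 and NPC1 are highest in shNRF2 GNA (means 68.1, 88.7 and 30.4 CPM).

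Of the 17 core genes, 2 were higher with GNA in shNC (11.8%, near the 14.6% of all genes) and 1 lower (5.88%, beside 16.1%). In shNRF2, 7 were higher (41.2%, beside 16.7% of all genes), and all 17 values lay between -0.03 and 0.56. ULK1 encodes the kinase that starts autophagy. ULK1 stood at 27.8, 27.1 and 27.9 CPM in shNC DMSO, 37.5, 44.8 and 43.8 in shNC GNA, 36.4, 33.6 and 28.1 in shNRF2 DMSO and 46.2, 45.2 and 43.6 in shNRF2 GNA. All 6 GNA libraries exceeded all 6 DMSO libraries. It rose by 0.61 ± 0.085 in shNC (adjusted p = 3.1e-06) and 0.46 ± 0.084 in shNRF2 (adjusted p = 1e-04), and the difference of -0.15 ± 0.12 was not called. Its higher level with the hairpin in DMSO (0.25 ± 0.088, adjusted p = 0.028) was lost without library 2 or 3 of shNC DMSO or library 1 or 2 of shNRF2 DMSO (0.16 to 0.26, adjusted p = 0.055 to 0.21).

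RB1CC1 encodes FIP200, the scaffold of the ULK1 complex. RB1CC1 stood at 81.8, 85.9 and 90.2 CPM in shNC DMSO, 95.5, 87.8 and 89.4 in shNC GNA, 69.5, 66.5 and 75.3 in shNRF2 DMSO and 96.1, 111 and 103 in shNRF2 GNA. The shNC groups overlapped, while the shNRF2 groups lay below and above them. Its response was 0.08 ± 0.063 in shNC (adjusted p = 0.37) and 0.56 ± 0.064 in shNRF2 (adjusted p = 9.2e-08), with a difference of 0.48 ± 0.09 (adjusted p = 0.0013). The hairpin changed it by -0.29 ± 0.065 in DMSO (adjusted p = 0.00097) and 0.19 ± 0.063 in GNA (adjusted p = 0.026), the second lost without library 2 or 3 of shNC GNA or of shNRF2 GNA (0.13 to 0.19, adjusted p = 0.064 to 0.18). With library totals the shNC response was called as well (0.18, adjusted p = 0.025).

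ATG4A encodes a protease that trims ATG8 proteins, and ATG12 a ubiquitin-like protein that is joined to ATG5. ATG4A stood at 14.7, 16.8 and 15.97 CPM in shNC DMSO, 15.3, 15.2 and 14.9 in shNC GNA, 11.7, 12.1 and 14.03 in shNRF2 DMSO and 17.1, 17.4 and 16.4 in shNRF2 GNA. ATG12 stood at 51.5, 61.7 and 59.6 CPM in shNC DMSO, 55.9, 55.3 and 55.3 in shNC GNA, 47.2, 46.2 and 48.5 in shNRF2 DMSO and 56.5, 58.5 and 56.5 in shNRF2 GNA. For both genes the shNRF2 DMSO libraries were the lowest 3 and the other groups overlapped in part. The response of ATG4A was -0.06 ± 0.099 in shNC, which was not called, and 0.43 ± 0.10 in shNRF2 (adjusted p = 0.0015). That of ATG12 was -0.05 ± 0.066 in shNC, not called, and 0.27 ± 0.067 in shNRF2 (adjusted p = 0.0022). The differences between the lines, 0.49 ± 0.14 (adjusted p = 0.034) and 0.33 ± 0.094 (adjusted p = 0.033), were lost in 8 and 9 of the 12 fits that left out 1 library. For ATG4A these were the fits without library 2 or 3 of shNC DMSO, 2 or 3 of shNC GNA, 1 or 2 of shNRF2 DMSO, or 1 or 2 of shNRF2 GNA (0.44 to 0.50, adjusted p = 0.067 to 0.1). For ATG12 they were the same and that without library 3 of shNRF2 GNA (0.28 to 0.34, adjusted p = 0.059 to 0.1). The hairpin lowered ATG4A in DMSO by 0.33 ± 0.10 (adjusted p = 0.013), a call lost without library 2 of shNC DMSO or library 1 or 2 of shNRF2 DMSO (-0.28 to -0.30, adjusted p = 0.054 to 0.075). ATG12 was lower by 0.29 ± 0.067 (adjusted p = 0.0015).

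Among the other 13 core genes, ATG14, the subunit that directs the lipid kinase to autophagy, rose with GNA by 0.22 ± 0.074 in shNC (adjusted p = 0.024) and 0.46 ± 0.074 in shNRF2 (adjusted p = 1.4e-05). The shNC call was lost without library 1 or 3 of shNC DMSO or library 3 of shNC GNA (0.16 to 0.19, adjusted p = 0.079 to 0.14). ATG2A, a lipid transfer protein, and ATG13, a partner of ULK1, were called higher in shNRF2 (0.39 ± 0.12 and 0.41 ± 0.11), the call of ATG2A being lost without library 3 of shNRF2 DMSO or library 2 of shNRF2 GNA (0.31, adjusted p = 0.068 and 0.07). ATG16L1, which places the conjugation complex on the membrane, fell by 0.19 ± 0.056 with GNA in shNC (adjusted p = 0.012), a call lost without library 1 of shNC GNA, without the filter, with library totals and with limma (-0.17 to -0.08, adjusted p = 0.066 to 0.26). The hairpin in DMSO lowered ATG16L1 (-0.28 ± 0.057), BECN1 (-0.23 ± 0.052) and ATG5 (-0.25 ± 0.088). The call of ATG5 was lost without library 2 or 3 of shNC DMSO or library 1 or 2 of shNRF2 DMSO, without the filter, with library totals and with limma (-0.25 to -0.16, adjusted p = 0.062 to 0.13). The hairpin raised WIPI1, a reader of the lipid mark, in both treatments (0.36 ± 0.087 in DMSO and 0.43 ± 0.085 in GNA, adjusted p = 0.0017 and 0.00034). ATG3, ATG4B, ATG7, ATG9A, UVRAG and WIPI2 were called in no comparison by edgeR, and ATG3 was called for the hairpin in DMSO without library 1 of shNC DMSO. Of the exonic bases of ATG9A, 38.8% overlap another gene on the same strand.

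Of the 3 transcription factors of the lysosome programme, MITF fell with GNA in both lines. MITF stood at 56.4, 59.2 and 61.1 CPM in shNC DMSO, 38.7, 43.9 and 39.5 in shNC GNA, 57.04, 57.5 and 57.9 in shNRF2 DMSO and 38.99, 40.5 and 36.6 in shNRF2 GNA. Every GNA library was below every DMSO library, and the lines overlapped in each treatment. It fell by 0.53 ± 0.067 in shNC (adjusted p = 5.8e-07) and 0.57 ± 0.068 in shNRF2 (adjusted p = 1.5e-07), and the difference had a 95% interval of -0.23 to 0.16. TFE3 stood at 51.9, 47.3 and 55.8 CPM in shNC DMSO, 54.5, 59.3 and 55.1 in shNC GNA, 48.2, 50.8 and 47.8 in shNRF2 DMSO and 53.5, 54.9 and 57.8 in shNRF2 GNA. Its response was 0.13 ± 0.068 in shNC (adjusted p = 0.17) and 0.18 ± 0.069 in shNRF2 (adjusted p = 0.045), and the second call was lost in 11 of 22 other fits. Among them were those without library 3 of shNC GNA or any 1 of the 6 shNRF2 libraries (0.15 to 0.20, adjusted p = 0.051 to 0.17). TFEB was scarce. TFEB stood at 3.45, 3.80 and 3.70 CPM in shNC DMSO, 3.53, 2.90 and 3.87 in shNC GNA, 4.50, 2.99 and 3.68 in shNRF2 DMSO and 2.49, 2.66 and 2.77 in shNRF2 GNA. The shNRF2 GNA libraries were the lowest 3 of the 12, but the value of -0.50 ± 0.21 in that line was not called (adjusted p = 0.072). It was called without library 2 of shNRF2 DMSO (-0.64, adjusted p = 0.034). These factors are known to be controlled by their place in the cell as well as by their RNA, which RNA levels do not show.

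Among the lysosome membrane genes, NPC1 had a response to GNA in shNRF2 as large as that of SQSTM1 within the SE. NPC1 stood at 16.1, 15.1 and 15.05 CPM in shNC DMSO, 21.6, 25.7 and 24.7 in shNC GNA, 10.5, 11.5 and 8.82 in shNRF2 DMSO and 30.01, 27.6 and 33.6 in shNRF2 GNA. The groups did not overlap and were ordered as those of MAP1LC3B and GABARAPL1. GNA raised it by 0.64 ± 0.10 in shNC (adjusted p = 1.9e-05) and 1.57 ± 0.11 in shNRF2 (adjusted p = 4.9e-12), with a difference of 0.92 ± 0.15 (adjusted p = 0.00021). The hairpin changed NPC1 by -0.58 ± 0.11 in DMSO (adjusted p = 0.00021) and 0.34 ± 0.096 in GNA (adjusted p = 0.0097), the second lost without library 1 of shNC GNA or library 3 of shNRF2 GNA (0.27 and 0.26, adjusted p = 0.064 and 0.091) and with limma on log2(FPKM + 0.1) (adjusted p = 0.058). On the log2(FPKM + 1) scale, which understates changes of low genes, the limma values were 1.05 for GNA in shNRF2, 0.56 for the difference and -0.30 for the hairpin in DMSO, all called. LAMP2, a membrane glycoprotein needed for fusion and for chaperone-mediated autophagy, rose by 0.30 ± 0.072 in shNC (adjusted p = 0.0022) and 0.30 ± 0.073 in shNRF2 (adjusted p = 0.0018). LAMP1 and MCOLN1, whose windows hold CLEAR cores, were called in no comparison by edgeR. The other 2 lysosome genes with such a core, CTSA and ATP6V0D1, were each called in 1 comparison (given below). LAMP1 was called with GNA in shNC under upper-quartile factors, library totals and limma (0.24 to 0.31, adjusted p = 0.01 to 0.047). MCOLN1 had a value of 0.30 ± 0.12 with the hairpin in DMSO (adjusted p = 0.052), which was called in 9 of 22 other fits (0.28 to 0.38, adjusted p = 0.022 to 0.047). LAMP1 had values of 0.21 ± 0.093 and 0.06 ± 0.094 with GNA, and MCOLN1 of -0.05 ± 0.12 and -0.13 ± 0.12.

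The lumen genes moved in different directions with GNA. CTSD, CTSL, PSAP and HEXA rose in both lines, CTSB and NPC2 fell in both, and GLA fell in shNC. CTSB and CTSL encode cysteine proteases and CTSD an aspartic protease. CTSL stood at 888, 868 and 909 CPM in shNC DMSO, 1364, 1320.2 and 1369 in shNC GNA, 513, 480.3 and 516 in shNRF2 DMSO and 849, 993 and 927 in shNRF2 GNA. CTSB stood at 1459.8, 1501 and 1600.2 CPM in shNC DMSO, 1205, 1227 and 1243 in shNC GNA, 1015, 994 and 949 in shNRF2 DMSO and 756, 749.8 and 808 in shNRF2 GNA. Both were lower with the hairpin in both treatments without overlap, while GNA moved them in opposite directions. GNA raised CTSL by 0.61 ± 0.049 in shNC (adjusted p = 3e-10) and 0.88 ± 0.05 in shNRF2 (adjusted p = 1.1e-13), and lowered CTSB by 0.31 ± 0.045 (adjusted p = 5.2e-06) and 0.35 ± 0.046 (adjusted p = 5.6e-07). The hairpin lowered CTSL by 0.82 ± 0.05 in DMSO and 0.55 ± 0.049 in GNA (adjusted p = 6.9e-13 and 1.9e-09), and CTSB by 0.62 ± 0.045 and 0.67 ± 0.046 (adjusted p = 2.7e-11 and 9e-12). For CTSB the difference of the GNA responses had a 95% interval of -0.17 to 0.09. For CTSL it was 0.27 ± 0.07 (adjusted p = 0.017), a call lost without library 2 of shNC GNA, shNRF2 DMSO or shNRF2 GNA (0.22 to 0.25, adjusted p = 0.059 to 0.08).

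CTSD was low but rose with GNA in both lines, and the difference between the lines was not called. CTSD stood at 10.1, 11.3 and 11.8 CPM in shNC DMSO, 19.7, 20.1 and 19.6 in shNC GNA, 10.1, 11.2 and 8.82 in shNRF2 DMSO and 19.5, 20.5 and 21.9 in shNRF2 GNA. Every GNA library exceeded every DMSO library, and the lines overlapped. It rose by 0.84 ± 0.10 in shNC (adjusted p = 4.7e-07) and 1.04 ± 0.11 in shNRF2 (adjusted p = 1.1e-08), and the difference had a 95% interval of -0.11 to 0.51. Of its exonic bases, 41.7% overlap another gene on the same strand, so reads may have been split between them. PSAP encodes the precursor of the saposins, which help enzymes to degrade sphingolipids. PSAP stood at 539, 531 and 570.2 CPM in shNC DMSO, 696, 718 and 774 in shNC GNA, 477, 456 and 424 in shNRF2 DMSO and 735, 722 and 709.6 in shNRF2 GNA. The hairpin lowered it in DMSO by 0.27 ± 0.05 (adjusted p = 9.4e-05), and the lines overlapped in GNA. It rose by 0.42 ± 0.05 in shNC (adjusted p = 2.5e-07) and 0.67 ± 0.05 in shNRF2 (adjusted p = 2.3e-11). The difference of 0.26 ± 0.07 (adjusted p = 0.024) was lost without library 3 of shNC DMSO, 2 of shNC GNA, 2 or 3 of shNRF2 DMSO, or 1 or 2 of shNRF2 GNA (0.21 to 0.26, adjusted p = 0.052 to 0.077).

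GLA encodes alpha-galactosidase A, and NPC2 the soluble protein that hands cholesterol to NPC1. GLA stood at 96.7, 97.7 and 96.2 CPM in shNC DMSO, 81.8, 76.7 and 79.1 in shNC GNA, 45.8, 50.1 and 51.7 in shNRF2 DMSO and 56.03, 50.7 and 47.5 in shNRF2 GNA. The shNRF2 groups overlapped each other and lay below both shNC groups. The hairpin lowered GLA by 0.98 ± 0.065 in DMSO (adjusted p = 4.4e-12) and 0.63 ± 0.065 in GNA (adjusted p = 2.8e-08). GNA lowered it by 0.29 ± 0.063 in shNC (adjusted p = 0.00071, and -0.19 to -0.18 with library totals or limma) and had a value of 0.06 ± 0.068 in shNRF2 (adjusted p = 0.53). The difference of 0.35 ± 0.092 (adjusted p = 0.019) was lost without library 2 of shNC GNA or library 1 of shNRF2 DMSO or shNRF2 GNA (0.29 to 0.33, adjusted p = 0.059 to 0.08). NPC2 stood at 36.3, 41.3 and 39.2 CPM in shNC DMSO, 32.96, 30.5 and 32.5 in shNC GNA, 30.9, 36.6 and 37.5 in shNRF2 DMSO and 22.1, 23.6 and 20.3 in shNRF2 GNA. The shNRF2 GNA libraries were the lowest 3, so NPC2 and NPC1 moved in opposite directions with GNA. NPC2 fell by 0.29 ± 0.083 in shNC (adjusted p = 0.0095) and 0.67 ± 0.087 in shNRF2 (adjusted p = 7.7e-07), and the difference of -0.38 ± 0.12 was not called (adjusted p = 0.055). The shNC call was lost without library 2 of shNC DMSO or of shNC GNA (-0.24 and -0.25, adjusted p = 0.057 and 0.051), and with library totals (-0.18, adjusted p = 0.09) or limma on FPKM (adjusted p = 0.11 with either pseudocount). The hairpin lowered NPC2 in GNA by 0.54 ± 0.087 (adjusted p = 2.9e-05), and in DMSO its value of -0.16 ± 0.083 was not called. HEXA, a subunit of beta-hexosaminidase, rose by 0.43 ± 0.095 and 0.42 ± 0.097 with GNA, CTSA rose by 0.30 ± 0.11 in shNRF2, and GRN was called in no comparison by edgeR. The CTSA call was lost with DESeq2, without the filter, and without library 3 of shNRF2 DMSO or library 1 or 2 of shNRF2 GNA (0.17 to 0.30, adjusted p = 0.053 to 0.23). GRN was called with GNA in shNC with library totals and without library 3 of shNC DMSO, and in shNRF2 in the fit of the compared groups alone.

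**Figure D4:**
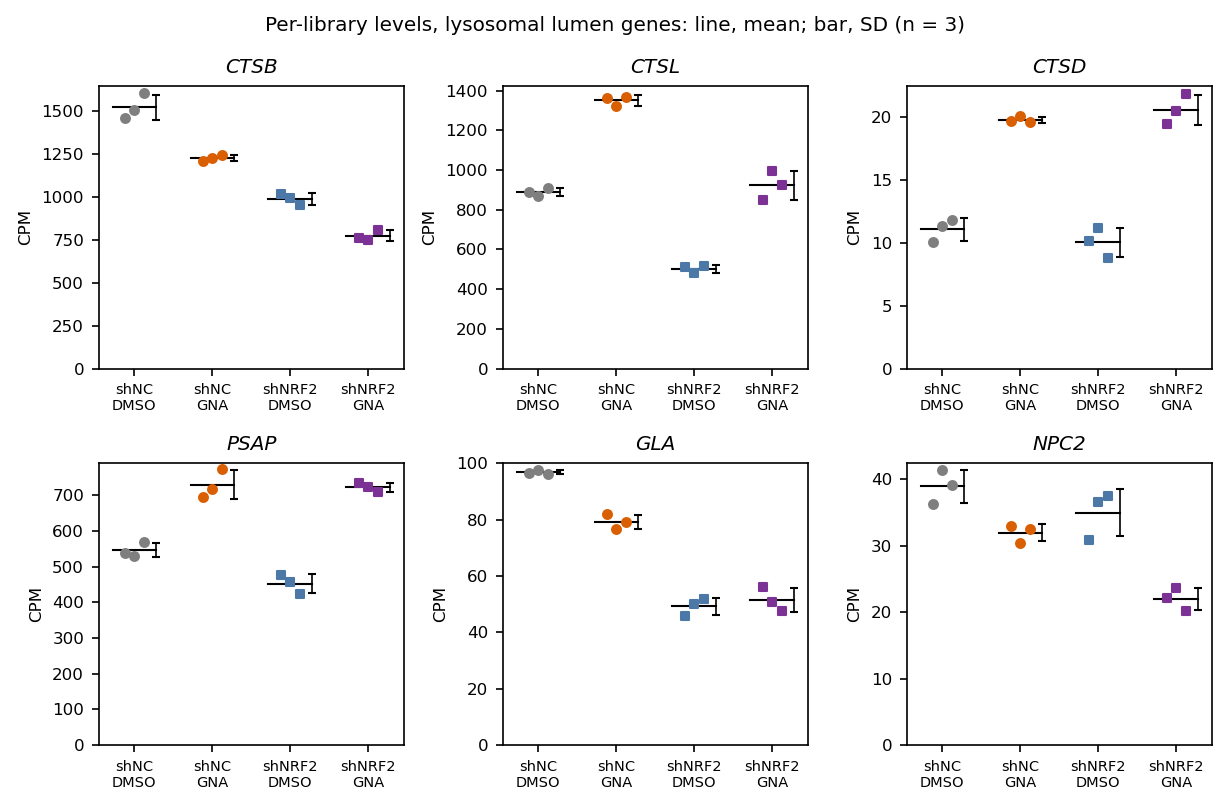
CPM (y axis, from 0) in each library of the 4 groups (x axis) for 6 lysosomal lumen genes, with the group mean as a line and the SD as a bar (n = 3). CTSL, CTSD and PSAP are higher in the GNA libraries of each line, CTSB and NPC2 lower, and GLA stays near 50 CPM in shNRF2 (means 49.2 and 51.4 CPM).

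Of 12 V-ATPase subunits outside the list, 5 were lower with the hairpin in DMSO (41.7%) and 1 was higher (8.33%). The shares of all genes tested were 18.3% and 16.8%. The 5 listed subunits, parts of the pump that acidifies lysosomes, were all lower, by 0.23 ± 0.091 (ATP6V1B2) to 0.45 ± 0.12 (ATP6V1H). ATP6V1B2 was at the threshold (adjusted p = 0.048), and its call was lost in 17 of 22 other fits (-0.25 to -0.13, adjusted p = 0.051 to 0.22). The number called lower was 3, with ATP6V0D1 lost as well (-0.28 to -0.16, adjusted p = 0.055 to 0.13), without library 2 of shNC DMSO, without library 3 of shNRF2 DMSO, with library totals, without the filter on low counts and with limma on FPKM. ATP6V1H stood at 16.1, 15.5 and 16.4 CPM in shNC DMSO, 12.9, 13.6 and 10.01 in shNC GNA, 11.1, 12.3 and 11.6 in shNRF2 DMSO and 15.2, 12.8 and 12.7 in shNRF2 GNA. The shNC DMSO libraries were the highest 3. GNA lowered it by 0.40 ± 0.12 in shNC (adjusted p = 0.01), a call lost without library 3 of shNC GNA (-0.27, adjusted p = 0.098), with library totals (-0.29, adjusted p = 0.053) and with limma (adjusted p = 0.075 and 0.074), and its value in shNRF2 was 0.21 ± 0.12 (adjusted p = 0.19). The difference was 0.61 ± 0.17 (adjusted p = 0.025) and was lost without library 3 of shNC DMSO or shNC GNA or library 1 of shNRF2 DMSO or shNRF2 GNA (0.48 to 0.59, adjusted p = 0.059 to 0.085). ATP6V1B2 rose with GNA in shNRF2 (0.25 ± 0.091, adjusted p = 0.037), a call lost with DESeq2, without the filter, and without library 1 or 3 of shNRF2 DMSO or 2 or 3 of shNRF2 GNA (0.19 to 0.25, adjusted p = 0.068 to 0.18). ATP6V1C1 was also lower with the hairpin in GNA (-0.30 ± 0.087, adjusted p = 0.012), a call lost without library 3 of shNC GNA or library 2 or 3 of shNRF2 GNA (-0.26 to -0.21, adjusted p = 0.064 to 0.11).

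The hairpin comparisons of the 2 treatments share no library and can be set beside each other. Their difference is the same quantity as the difference of the GNA responses above and adds no separate result. The DMSO comparison also uses the same shNRF2 DMSO libraries as the GNA comparison of that line. In DMSO, 22 of 47 members were lower with the hairpin (46.8%, beside 18.3% of all genes tested) and 2 were higher (4.26%, beside 16.8%). These were 12 lower and 2 higher of 26 autophagy genes (median -0.17) and 10 lower of 18 lysosome genes (median -0.25), where all genes had a median of 0.01. edgeR called 0 of the 18 lysosome genes higher, with 1 at an unadjusted p under 0.05, and DESeq2 called 0 as well, while 9 of 22 other fits called 1, MCOLN1. In GNA, 7 members were lower (14.9%, beside 13.3% of all genes) and 6 higher (12.8%, beside 12.8%). Pooled, both shares were near those of all genes, but the lists leaned in opposite directions, which was not tested. Of the 18 lysosome genes, 5 were lower (27.8%) and 1 higher (5.56%), with a median of -0.04. Of the 26 autophagy genes, 2 were lower (7.69%) and 5 higher (19.2%), with a median of 0.06. Of the 22 genes lower in DMSO, 6 were also lower in GNA (SQSTM1, GABARAPL2, CTSB, CTSL, GLA and ATP6V1C1), 12 were not called, and 4 were higher (MAP1LC3B, GABARAPL1, RB1CC1 and NPC1). Of the 12 genes not called in GNA, only OPTN, ATG4A, ATG12, PSAP and ATP6V1H had a called difference of the GNA responses. The 4 lysosome genes lower in both treatments were the enzymes CTSB, CTSL and GLA and the pump subunit ATP6V1C1. In GNA, NPC1 was the 1 lysosome gene called higher, and the autophagy genes called higher were MAP1LC3B, GABARAPL1, RB1CC1, ATG14 and WIPI1.

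**Figure D5:**
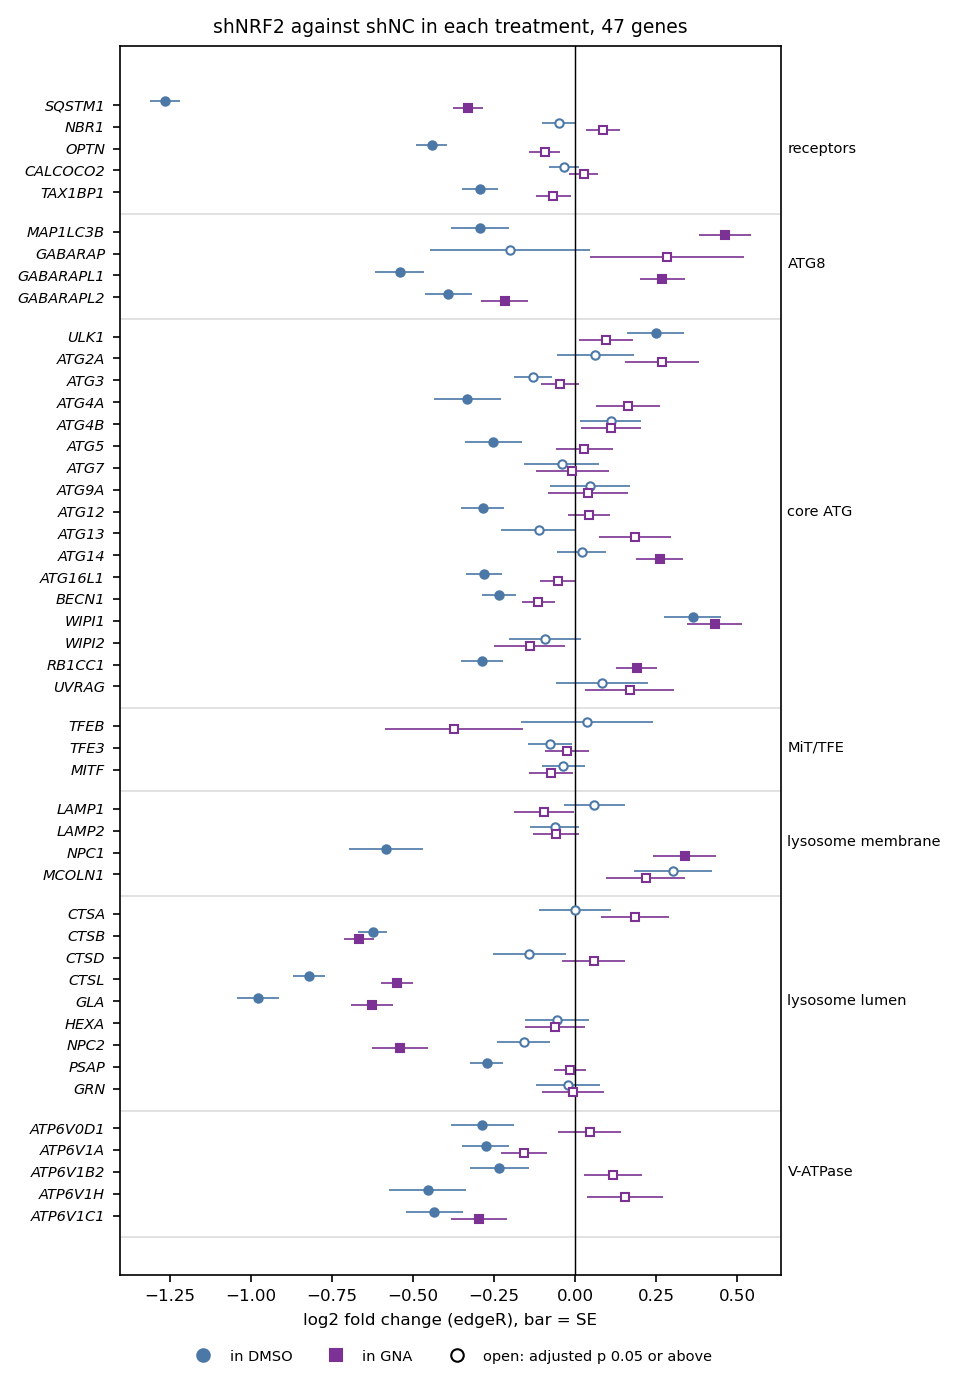
Log2 fold change of shNRF2 against shNC (x axis, edgeR, bars are SE, n = 3 libraries per group) for the 47 genes (y axis, by role), circles in DMSO and squares in GNA, with filled symbols for an adjusted p under 0.05. SQSTM1 moves from -1.27 to -0.33, MAP1LC3B from -0.29 to 0.46 and NPC1 from -0.58 to 0.34, while CTSB lies at -0.62 and -0.67.

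Per length of the gene, 3 lysosomal lumen genes and 4 receptors led the members, while other lumen genes were among the lowest. On the deposited FPKM scale in shNC DMSO, PSAP was highest at 167 ± 6.10 FPKM (SD, n = 3). CTSL (138 ± 3.29 FPKM) and CTSB (137 ± 5.87 FPKM) followed with overlapping libraries, and then SQSTM1 (92.3 ± 4.20 FPKM) and OPTN (90.5 ± 4.18 FPKM), which overlapped each other. HEXA (1.12 ± 0.116 FPKM), CTSA (1.78 ± 0.114 FPKM) and CTSD (1.85 ± 0.140 FPKM) lay far below these. Such ranks depend on the gene lengths used, whose annotation is not given. In GENCODE 29, HEXA has 12611 exonic bases, and CTSD shares 41.7% of its exonic bases with another gene on the same strand. The core machinery ranged from 26.1 to 29.4 FPKM over the libraries for ATG3 to 1.17 ± 0.0103 FPKM for UVRAG, with ULK1 at 3.45 ± 0.0661 FPKM. MAP1LC3B (6.17 ± 0.293 FPKM) lay below GABARAPL1 (12.4 ± 1.44 FPKM) and GABARAPL2 (24.7 ± 2.60 FPKM) without overlap. NPC1 was among the lowest members at 1.51 ± 0.0667 FPKM, and TFEB was the last at 0.517 ± 0.0226 FPKM.

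Beyond the 47 genes, 123 other genes of the same machinery were listed, of which 121 were tested. With GNA, 8 of the 43 other autophagy genes rose (18.6%, beside 14.6% of all genes) and 4 fell (9.30%, beside 16.1%) in shNC. In shNRF2, 10 rose (23.3%, beside 16.7%) and 4 fell (9.30%, beside 17%). The response was called larger in shNRF2 for 3 of the 43, ATG101, AMBRA1 and PLEKHM1 (6.98%, beside 3.58% of all genes). It was called smaller for 0 (beside 3.24%). The GNA medians of these 43 genes, 0.06 and 0.09, compare with 0.08 and 0.32 for the autophagy members. Of 78 other lysosome genes tested, 23 were higher (29.5%) and 10 lower (12.8%) in shNC (median 0.08), and 23 (29.5%) and 8 (10.3%) in shNRF2 (median 0.11). The difference was larger for 5 (6.41%, beside 3.58% of all genes) and smaller for 4 (5.13%, beside 3.24%). The 4 include TFEC, a relative of TFEB, TFE3 and MITF that was kept in this list. The median difference was 0.079 over the other autophagy genes and -0.0096 over the other lysosome genes. Over the autophagy and lysosome members it was 0.22 and 0.16. In the hairpin comparison in DMSO the counts were 5 higher and 11 lower for other autophagy genes (11.6% and 25.6%) and 12 and 20 for other lysosome genes (15.4% and 25.6%), beside 16.8% and 18.3% of all genes, with medians near those of all genes (0.0048 and 0.03).

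The largest changes among these other genes included subunits and receptors that resemble the members. CCPG1, a receptor for parts of the endoplasmic reticulum, rose by 0.72 ± 0.075 in shNC and 0.48 ± 0.076 in shNRF2 (adjusted p = 2.6e-08 and 1.4e-05). RETREG1, also such a receptor, rose by 0.51 ± 0.16 in shNC, STBD1, a glycogen receptor, by 0.77 ± 0.22 in shNRF2, and FUNDC1, a mitochondrial receptor, fell by 0.36 and 0.24. The V-ATPase subunits ATP6V0A1 and ATP6V0A2, which anchor the pump in the membrane, rose in both lines: ATP6V0A1 by 0.83 ± 0.077 and 0.95 ± 0.077, and ATP6V0A2 by 1.07 ± 0.11 and 0.55 ± 0.11. The subunits ATP6V1D and ATP6V0E1 were called lower in shNC (-0.31 ± 0.063 and -0.24 ± 0.084). Of the 12 other subunits, 3 had a called larger response in shNRF2 (25%, beside 3.58% of all genes). A smaller one was called for 1, ATP6V0A2 (-0.52 ± 0.15, adjusted p = 0.036, 8.33% beside 3.24%). The hydrolase genes IDUA and CTSH rose in shNC by 1.12 ± 0.25 and 0.85 ± 0.28, and CTSC and GM2A fell there (-0.43 and -0.39). For CTSH the response was smaller in shNRF2, with a difference of -1.45 ± 0.39 (adjusted p = 0.024). TPP1, a lysosomal peptidase, rose by 0.98 ± 0.11 in shNRF2. CTSV, a cysteine protease close to CTSL, fell there by 1.26, from 15.3 ± 0.387 CPM (SD, n = 3) in DMSO to 6.32 ± 1.36 CPM in GNA, and its response differed from that in shNC by -0.87 ± 0.22 (adjusted p = 0.014). TFEC, the fourth gene of the MiT/TFE family, fell by 1.04 in shNRF2, from 23.0 ± 1.28 CPM to 11.1 ± 0.764 CPM, with a difference between the lines of -0.75 ± 0.13 (adjusted p = 0.00054). FLCN (0.65 ± 0.15) and RRAGB (0.63 ± 0.12) rose in shNC, and RRAGD (0.99 ± 0.22) in shNRF2. All 3 belong to the signalling from lysosomes to the growth kinase mTORC1. IGF2R, which sorts hydrolases to lysosomes, rose by 0.83 ± 0.076 in shNRF2, and LAMTOR5, an anchor of that signalling, fell by 0.65 in shNC. ATG9B was listed at 0 in all 3 shNRF2 DMSO libraries and stood at 0.127 to 0.739 CPM in shNRF2 GNA, too few counts for a fold change.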

How the data were processed

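RNA of 12 libraries, 3 per group, was sequenced in bulk. Raw gene counts and FPKM values were deposited by the authors in separate tables, and the FPKM equalled count per total and per length within 0.001 for 100% of 11370 genes checked. GRCh38 and DESeq2 are named in the submitters' processing notes. No source used here names the aligner, the counter, the annotation or the use of strand. The single-cell data of the study were not analysed here.

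Counts were filtered with filterByExpr (minimum count 10, minimum total 15), which kept 15653 of 61510 genes and 99.8% of counts, scaled by TMM and fitted with edgeR 4.0.16 in R 4.3.3 as 1 quasi-likelihood model of the 12 libraries (8 residual degrees of freedom). p-values were adjusted by Benjamini-Hochberg over all genes tested, with a threshold of 0.05. An SE is the absolute log2 fold change divided by the root of F. Exact permutation of 3 against 3 libraries cannot go below p = 0.1 and was not used. The fits were tested on simulated data.

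The 47 members and the lists of other genes were chosen with earlier results of these data known. Per-library values are given for members called in the difference of the GNA responses, members with a called change of at least 0.5 on the log2 scale, and TFEB, TFE3 and MITF. Up to 2 other genes each way per list and GNA comparison were eligible to be named. ATG101, AMBRA1 and PLEKHM1 are named because their count was 3, chosen after their values were seen.

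Alternatives were DESeq2 1.42.0 and its size factors in edgeR, upper-quartile factors, library totals, a filter of 1 CPM or none, limma 3.58.1 on log2(FPKM + 1) and log2(FPKM + 0.1), a replicate block, a fit of the compared groups alone, and the omission of each library.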

Additional observations from a re-analysis of the deposited data

Results flagged for a closer look

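For 12 members the response to GNA differed between the shNC and shNRF2 lines by the edgeR test of the difference itself, each being larger in the shNRF2 line on the log2 scale. Among the autophagy genes these differences were 0.94 for SQSTM1, 0.81 for GABARAPL1, 0.76 for MAP1LC3B, 0.49 for ATG4A, 0.48 for RB1CC1, 0.35 for OPTN and 0.33 for ATG12. Among the lysosome genes they were 0.92 for NPC1, 0.61 for ATP6V1H, 0.35 for GLA, 0.27 for CTSL and 0.26 for PSAP.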

How the results depend on the processing

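Of 66 called results of the members given per library, 52 kept their call and direction in every alternative run and 14 lost the call in 1 or more. Of 29 called results of the other 27 members, 17 were kept and 12 lost in 1 or more, with no sign turned. With library totals, limma on log2(FPKM + 1) and limma on log2(FPKM + 0.1), 4 members in place of 7 were lower with GNA in shNC. The median of the lysosome genes in that comparison was 0.14, 0.087 and 0.12 in place of 0.03, and that of the autophagy genes 0.18 with library totals and 0.17 with the smaller pseudocount. In shNRF2 the lysosome median was 0.26 and 0.25 under those 2 settings. For the hairpin in DMSO the autophagy median was -0.071 (library totals) and -0.083 (limma), and the lysosome median -0.20, -0.15 and -0.19. The difference of the GNA responses was called larger for 7 members with both limma fits (lysosome median 0.098 with a pseudocount of 1) and smaller for 1, NPC2, with upper-quartile factors, library totals, the filter of 1 CPM and DESeq2.

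Leaving out 1 library each time moved the lysosome median for GNA in shNC between -0.025 and 0.096, the members higher with the hairpin in DMSO between 1 and 3, and the autophagy median there between -0.24 and -0.13. For the difference, the members called larger ranged from 7 to 13, those called smaller from 0 to 1, and the lysosome median from 0.10 to 0.21.

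The values whose direction turned were all uncalled in the reported fit. With library totals, limma with a pseudocount of 1 and limma with 0.1, the GNA values in shNC were 0.040, 0.036 and 0.042 for ATG4A, 0.048, 0.045 and 0.052 for ATG12, and 0.012, 0.0038 and 0.0053 for TFEB, and the hairpin values in DMSO 0.021 in all 3 for CALCOCO2 and 0.018, 0.017 and 0.019 for MITF. PSAP with the hairpin in GNA was 0.0021 with upper-quartile factors and 0.0014 with both limma fits. Over the fits without 1 library, TFEB ranged from -0.19 to 0.020 (GNA in shNC) and from -0.13 to 0.17 (hairpin in DMSO), GLA from -0.0031 to 0.12 (GNA in shNRF2), TFE3 from -0.057 to 0.016 and PSAP from -0.048 to 0.030 (hairpin in GNA), and TFE3 from -0.0059 to 0.11 and MITF from -0.073 to 0.020 (difference). The cause was not tested.

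The replicate block changed the call of 1 of 100 results of the members given per library, TFE3 with GNA in shNRF2 (0.18, edgeR adjusted p = 0.06), and 2 calls of other members, TAX1BP1 with GNA in shNC and ATP6V1B2 with the hairpin in DMSO. It gave 22 members higher and 3 lower with GNA in shNRF2. The numbers did not pair the libraries: 1 of 18 same-numbered pairs had a correlation over 0.1 (range -0.167 to 0.104), and 3 of 12 libraries correlated best with their own number. At 12848607 to 17192671 counts, TFEB, GABARAP and ATG9B rest on few counts, and a missed threshold there does not show that levels were alike.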
